A study of Mus musculus with 6 samples.

Results

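Mitochondrial ribosomal proteins are the nuclear-encoded proteins of the ribosome inside mitochondria. They were taken as the genes whose symbol begins with Mrpl or Mrps and a number, with pseudogenes left out. Of 78 such symbols, 73 had an Ensembl gene among the 21310 of the deposited mRNA table, and Mrpl2, Mrpl17, Mrpl33, Mrpl53 and Mrps34 were not analysed here. The messages came from pachytene spermatocytes of mouse testis, male germ cells midway through meiosis, in 1 library from Alkbh1-/- and 1 library from wild-type (WT) cells. The Alkbh1-/- line carries a targeted deletion of exon 6 of Alkbh1, and its heterozygotes had been crossed back to a C57/BL6 background. The sources used here do not give the WT strain, the ages or the number of animals behind either library. Input to the oligo(dT) selection was 1.6 µg of RNA from Alkbh1-/- cells and 1 µg from WT cells, and the totals were 10229260 counts in Alkbh1-/- and 8222671 in WT. The 4 small RNA libraries of the series, from Alkbh1-/-, TzfpGTi/GTi and WT cells, were not used here.

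The mitochondrial ribosome has a small subunit, which holds the messenger RNA and reads its codons, and a large subunit, which joins amino acids. It makes only the few proteins encoded by mitochondrial DNA, all of them parts of the respiratory chain and ATP synthase, while its own proteins are translated in the cytosol and imported. Many of its proteins have a homologue in bacterial ribosomes, and the others are named as specific to mitochondria. Alkbh1 is an AlkB-type dioxygenase, and in human cells the enzyme is known to modify mitochondrial transfer RNA, so the comparison bears on messages for the ribosome that uses those transfer RNAs. Spermatocyte mitochondria change shape and metabolism through meiosis, and respiration supplies much of the energy of these cells.

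Counts were scaled by TMM, a factor that corrects library totals for a few abundant genes, to CPM, counts per 1000000. A ratio is Alkbh1-/- CPM over WT CPM, and its 95% interval is exact (Clopper-Pearson). With 1 library per genotype there is no test and no replicate error. The intervals cover counting error only, and since these reads carry no molecular identifiers, PCR copies are counted like separate molecules. The log2 ratio was taken after adding 1 CPM to each value, which draws the values of weakly counted genes toward 0. Counts of genes past 1.2-fold, 1.5-fold or 2-fold use this log2 ratio, so a gene with few counts can have a plain ratio past a fold and not be counted there. Genes with at least 5 CPM in 1 or both libraries were compared, which kept 12189 genes and 70 of the 73 members. Alkbh1 itself had 20.2 CPM (209 counts) in Alkbh1-/- and 21.0 CPM (171 counts) in WT, a ratio of 0.962 (interval 0.782 to 1.18), and since the count spans all exons it is no check on the loss of exon 6.

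The start regions of a few members are shown because nuclear genes for mitochondrial proteins are known for binding sites of ETS factors, NRF1 (nuclear respiratory factor) and YY1 close to the transcription start. The windows run from 250 bases before to 50 bases after the start in RefSeq on GRCm38.p6, 5′ to 3′ on the gene's strand, and 69 of the 78 symbols had one. Capitals mark CCGGAAG (ETS), CGCATGCG (NRF1, the same on both strands) or AAGATGG (YY1), or their reverse complements CTTCCGG and CCATCTT; no 2 of these matches overlap in the windows shown. Mrps12 and Mrpl49 are among the members farthest above and below WT, Mrps18b and Mrps18c are paralogs with ratios on opposite sides of 1, and Mrps11 stands head to head with Mrpl46, whose own window overlaps this one only in part and does not hold the YY1 motif marked here.
Mrps12, chr7:28741772-28742071, minus strand: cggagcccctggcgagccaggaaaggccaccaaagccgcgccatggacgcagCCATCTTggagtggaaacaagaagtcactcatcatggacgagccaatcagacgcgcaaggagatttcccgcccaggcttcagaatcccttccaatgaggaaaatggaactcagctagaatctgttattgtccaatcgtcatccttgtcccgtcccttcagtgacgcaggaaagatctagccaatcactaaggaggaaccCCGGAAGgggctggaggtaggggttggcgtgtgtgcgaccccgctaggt
Mrpl49, chr19:6057706-6058005, minus strand: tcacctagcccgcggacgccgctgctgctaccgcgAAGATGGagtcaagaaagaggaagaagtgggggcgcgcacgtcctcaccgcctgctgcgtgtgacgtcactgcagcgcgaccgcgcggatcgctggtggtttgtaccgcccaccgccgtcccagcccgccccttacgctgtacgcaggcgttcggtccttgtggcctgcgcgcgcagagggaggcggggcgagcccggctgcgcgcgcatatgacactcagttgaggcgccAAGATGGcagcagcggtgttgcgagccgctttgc
Mrps18b, chr17:35916391-35916690, minus strand: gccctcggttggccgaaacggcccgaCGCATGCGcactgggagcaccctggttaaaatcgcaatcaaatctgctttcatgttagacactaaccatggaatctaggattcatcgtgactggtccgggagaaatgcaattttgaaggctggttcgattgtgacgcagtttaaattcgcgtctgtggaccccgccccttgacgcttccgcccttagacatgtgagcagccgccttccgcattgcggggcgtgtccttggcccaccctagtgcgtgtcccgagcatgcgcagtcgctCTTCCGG
Mrps18c, chr5:100798509-100798808, plus strand: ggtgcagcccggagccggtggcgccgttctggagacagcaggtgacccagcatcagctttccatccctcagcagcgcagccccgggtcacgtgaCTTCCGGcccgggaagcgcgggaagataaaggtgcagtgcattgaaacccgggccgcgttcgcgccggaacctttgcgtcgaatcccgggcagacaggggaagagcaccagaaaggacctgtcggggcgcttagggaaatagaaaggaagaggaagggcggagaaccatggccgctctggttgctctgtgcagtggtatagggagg
Mrps11, chr7:78782881-78783180, plus strand: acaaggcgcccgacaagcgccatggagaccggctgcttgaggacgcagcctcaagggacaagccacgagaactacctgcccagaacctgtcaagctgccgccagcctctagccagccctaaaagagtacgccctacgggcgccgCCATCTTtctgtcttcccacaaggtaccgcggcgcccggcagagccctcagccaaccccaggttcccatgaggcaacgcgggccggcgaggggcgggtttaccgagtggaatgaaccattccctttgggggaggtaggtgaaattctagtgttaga

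The ETS motif stood in 26 of the 75 member windows (34.7%), against 8.86% of all 32851 windows and 17.3% of the 11624 windows of genes over 5 CPM. The member windows were not limited to genes over 5 CPM. They include those of Mrpl17, Mrpl33 and Mrpl53, which hold the ETS motif but were not analysed here, and Mrpl17 also holds the NRF1 motif. The NRF1 motif stood in 7 member windows (9.33%), against 1.87% of all windows and 3.96% of those of genes over 5 CPM. For the YY1 motif the shares were 17.3%, 6.34% and 7.48%. The TATA box TATAAA was in 5 member windows (6.67%), against 13.6% of all windows and 6.88% of those of genes over 5 CPM. The GC box GGGCGG was in 39 (52.0%), above the 35.7% of all windows and below the 60.3% of genes over 5 CPM. A match is a run of letters and not a shown binding site. The median log2 ratio was 0.00 over the 23 members with the ETS motif and -0.05 over the 39 without it, and 0.04 over 6 with the NRF1 motif and -0.05 over 56 without. It was 0.04 over 13 members with the YY1 motif and -0.04 over 49 without, -0.15 over 5 with the TATA box and -0.03 over 57 without, and 0.02 over 29 with the GC box and -0.09 over 33 without. These splits were not tested.

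As a family, the messages for mitochondrial ribosomal proteins were nearly level between the genotypes. The 73 members together had 2324 CPM (24027 counts) in Alkbh1-/- and 2408 CPM (19591 counts) in WT, a summed ratio of 0.965 (interval 0.947 to 0.984). Over all 12189 genes the summed ratio was 0.978 (0.977 to 0.979), which lies inside the members' interval. The median log2 ratio of the 70 members over 5 CPM was -0.04, against -0.02 over all 12189 genes. By sign, 31 members (44.3%) were higher in Alkbh1-/- and 39 (55.7%) lower, close to the 47.9% and 52.1% of all genes. The spread of the family was narrow. The SD of the log2 ratio was 0.21 over the members and 0.45 over all genes, and the quartiles of the members were -0.16 and 0.04, against -0.23 and 0.21 of all genes.

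Counted by size, 55 members (78.6%) lay within 1.2-fold, against 56.7% of all genes. At least 1.2-fold higher were 4 members (5.71%), with 21.5% of all genes, and at least 1.2-fold lower were 11 (15.7%), with 21.8% of all genes. By the log2 ratio no member was 1.5-fold higher or lower, where 8.06% of all genes were higher and 8.79% lower, and none was 2-fold higher or lower, with 1.8% and 2.71% of all genes. The 1.5-fold count stands close to its limit: Mrps33, at a log2 ratio of 0.58, and Mrpl49, at -0.57, lay just inside it. By the plain ratio, with no pseudocount, 1 member (Mrps33) was 1.5-fold higher and 1 (Mrpl49) lower, with 9.15% of all genes higher and 9.69% lower. Counting depth was like that of the other genes, with a median over all 73 members of 259 counts in Alkbh1-/- and 204 in WT, against 322 in Alkbh1-/- and 260 in WT over all genes compared. The median width of the counting interval on the log2 scale was 0.54 for members and 0.49 for all genes.

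**Figure D1:**
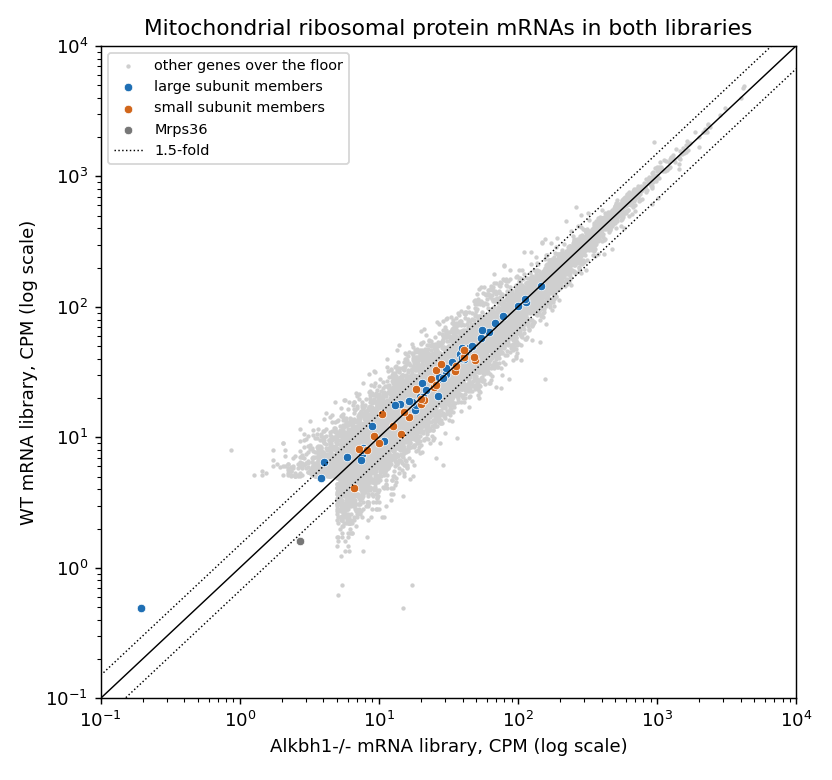
CPM of each gene in the Alkbh1-/- library (horizontal, log scale) and the WT library (vertical, log scale). Grey points are genes with at least 5 CPM in 1 or both libraries and a count in each, coloured points are the 73 members by subunit, the solid line is equality and the dotted lines are 1.5-fold. The members follow the line of equality from the weakly to the strongly counted, inside a wider cloud of other genes.

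The spread among members narrowed with depth. In the 10 members with a mean of 50 CPM or more the SD of the log2 ratio was 0.10, in the 34 with 20 to 50 CPM it was 0.18, and in the 26 with less it was 0.27. The 5 members with the most counts in both libraries were Mrpl24, Mrpl37, Mrpl38, Mrpl39 and Mrpl51. Mrpl39, which resembles part of a transfer RNA synthetase, had 1508 counts (146 CPM) in Alkbh1-/- and 1176 (145 CPM) in WT, a ratio of 1.01 (0.934 to 1.09). Mrpl37 had 114 CPM in Alkbh1-/- and 109 CPM in WT, a ratio of 1.04 (0.952 to 1.14). Mrpl24, at the exit of the tunnel through which new peptides leave, had 112 CPM in Alkbh1-/- and 111 CPM in WT, a ratio of 1.02 (0.930 to 1.11). The ratio of Mrpl38 was 0.970 (0.889 to 1.06) and that of Mrpl51 was 0.991 (0.904 to 1.09), so the intervals of all 5 contain 1 and leave room for differences of less than 1.2-fold.

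Of the 70 members, 5 had a counting interval above 1 (7.14%, against 23.7% of all genes) and 12 an interval below 1 (17.1%, against 26.8%). These intervals compare the libraries, not the genotypes. The higher ones were Mrps33, Mrps12, Mrpl28, Mrps28 and Mrps9, of which 4 belong to the small subunit. Mrps33, a mitochondria-specific protein of the small subunit, had 68 counts (6.58 CPM) in Alkbh1-/- and 33 (4.06 CPM) in WT, a ratio of 1.62 (1.05 to 2.54). Its wide interval follows from few counts. Mrps33 passed the floor of 5 CPM only through Alkbh1-/-, where it is higher, and such a floor favours unequal values near it. Mrps12, the homologue of the bacterial protein at the decoding centre, had 149 counts (14.4 CPM) in Alkbh1-/- and 86 (10.6 CPM) in WT, a ratio of 1.36 (1.04 to 1.80).

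Mrpl28 was the only large subunit member with an interval above 1, at 275 counts (26.6 CPM) in Alkbh1-/- and 169 (20.8 CPM) in WT, a ratio of 1.28 (1.05 to 1.56). Mrps28 had 507 counts (49.0 CPM) in Alkbh1-/- and 318 (39.1 CPM) in WT, with a ratio of 1.25 (1.09 to 1.45). Mrps9, a protein of the small subunit's head, had 504 counts (48.7 CPM) in Alkbh1-/- and 334 (41.1 CPM) in WT, a ratio of 1.19 (1.03 to 1.37). Next came Mrpl19, with 10.8 CPM in Alkbh1-/- and 9.34 CPM in WT, and its interval contains 1 (ratio 1.16, 0.859 to 1.57).

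The lowest member was Mrpl49, a mitochondria-specific protein of the large subunit. It had 42 counts (4.06 CPM) in Alkbh1-/- and 53 (6.51 CPM) in WT, a ratio of 0.624 (0.406 to 0.953). Mrpl49 passed the floor of 5 CPM only through WT, where it is higher, and such a floor favours unequal values near it. Mrpl44, which resembles RNase III enzymes, had 135 counts (13.1 CPM) in Alkbh1-/- and 145 (17.8 CPM) in WT, a ratio of 0.733 (0.575 to 0.933). Mrpl34 had 93 counts in Alkbh1-/- and 100 in WT, with a ratio of 0.732 (0.546 to 0.980). These low members carried fewer counts than the family's median. Deeper counts lay behind Mrps23, with 290 (28.0 CPM) in Alkbh1-/- and 297 (36.5 CPM) in WT, a ratio of 0.768 (0.651 to 0.906). Mrps17, of the small subunit's body, had 267 counts (25.8 CPM) in Alkbh1-/- and 268 (32.9 CPM) in WT, a ratio of 0.784 (0.659 to 0.932).

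Also below 1 with their whole interval were Mrps18c, described with its paralogs, and Mrpl12, Mrps6, Mrpl42, Mrpl45, Mrpl35 and Mrpl41, with ratios from 0.787 to 0.852. Mrpl12 forms the flexible stalk that recruits translation factors and also binds the mitochondrial RNA polymerase, and it had 20.5 CPM in Alkbh1-/- and 26.1 CPM in WT (ratio 0.787, 0.647 to 0.956). Mrpl45, which lies at the tunnel exit and faces the inner membrane, had 39.4 CPM in Alkbh1-/- and 48.6 CPM in WT (ratio 0.811, 0.704 to 0.934). Mrpl35 was the most deeply counted of the 12, with 572 counts (55.3 CPM) in Alkbh1-/- and 544 (66.9 CPM) in WT, a ratio of 0.827 (0.734 to 0.932).

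**Figure D2:**
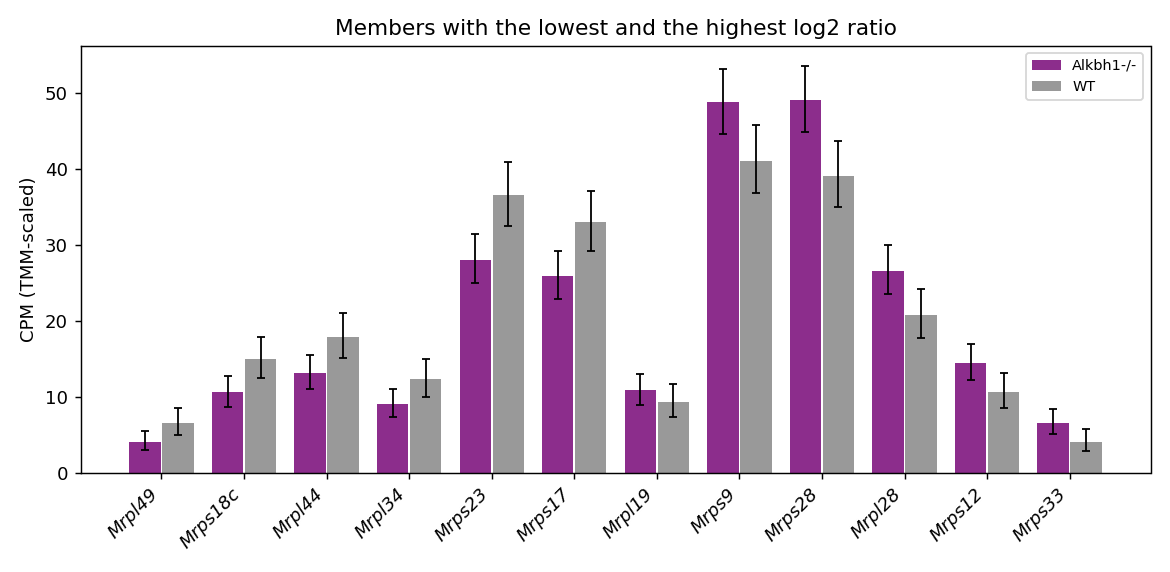
CPM, scaled by TMM, of the 6 members with the lowest and the 6 with the highest log2 ratio, with the Alkbh1-/- library left of the WT library for each gene. Bars start at 0 and the error bars are exact 95% Poisson intervals of the count, which cover counting error only; Mrpl49 is at 4.06 CPM in Alkbh1-/- and 6.51 CPM in WT, and Mrps33 at 6.58 CPM in Alkbh1-/- and 4.06 CPM in WT.

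**Figure D3:**
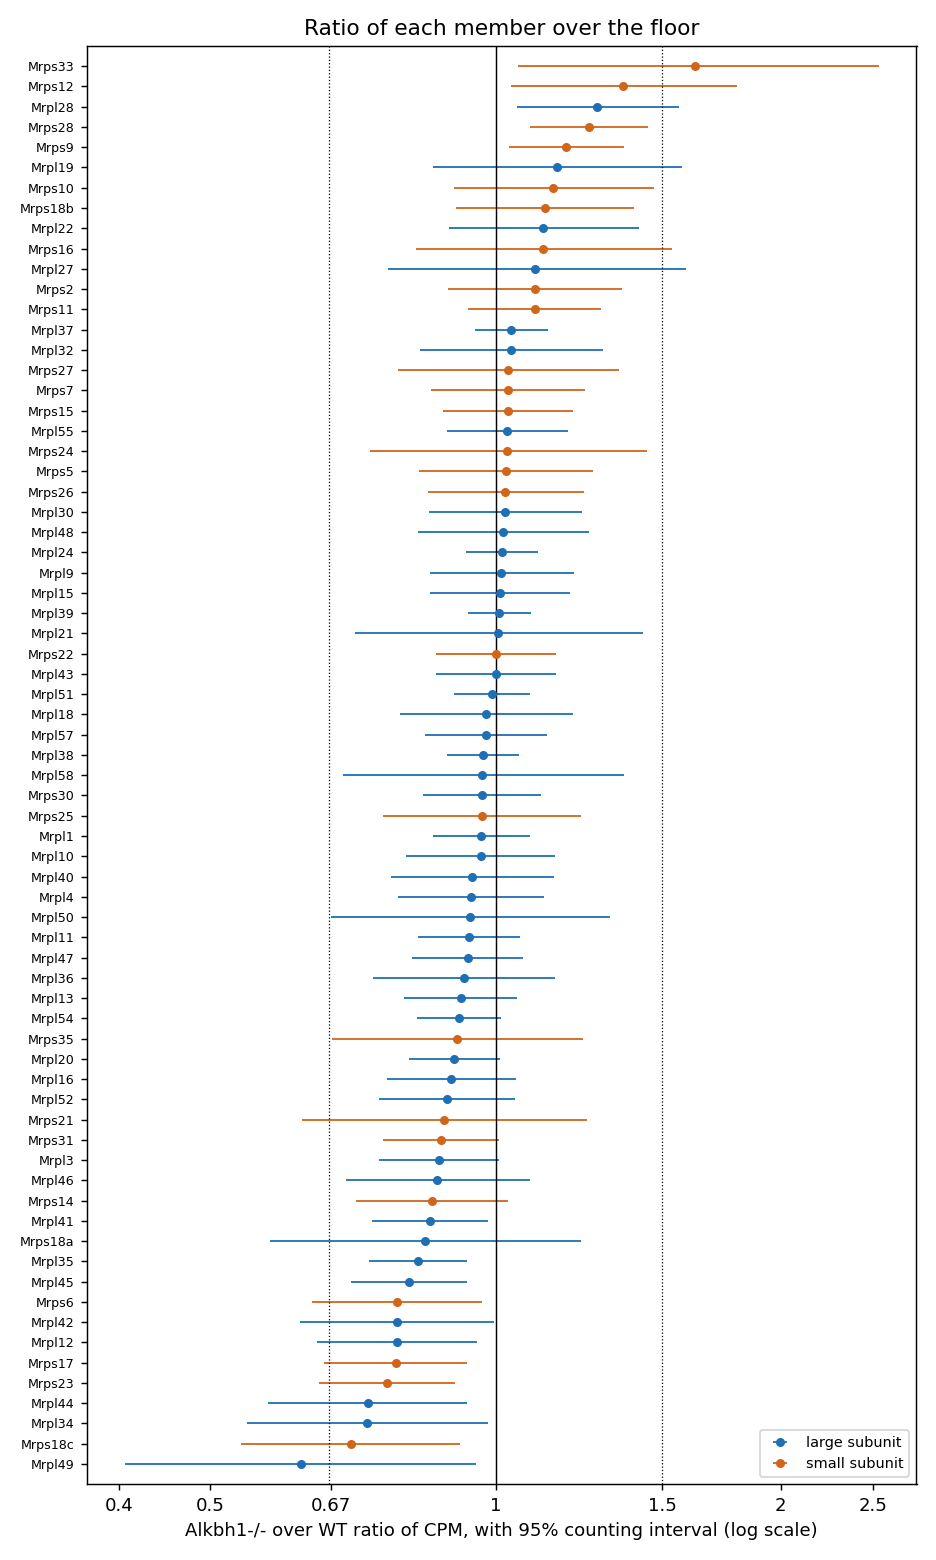
Ratio of Alkbh1-/- over WT CPM (log scale) for each of the 70 members over 5 CPM, ordered from the highest at the top, with its exact 95% counting interval and colour by subunit. The solid line is a ratio of 1 and the dotted lines are 1.5-fold; the points run from 0.624 to 1.62, with 5 intervals above 1 and 12 below it.

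Members were assigned to subunits by their place in the mammalian ribosome and not by symbol, so Mrps30 and Mrps18a count as large subunit proteins. The 47 large subunit members had a summed 1751 CPM in Alkbh1-/- and 1837 CPM in WT, a ratio of 0.953 (0.933 to 0.974). For the 25 small subunit members the sums were 571 CPM in Alkbh1-/- and 570 CPM in WT, a ratio of 1.00 (0.964 to 1.04). Over 5 CPM, 15 of 45 large subunit members were higher and 30 lower in Alkbh1-/-, with a median log2 ratio of -0.05, while 16 of 25 small subunit members were higher and 9 lower, with a median of 0.04. The SD was 0.25 in the small subunit and 0.17 in the large subunit. Of all genes over 5 CPM, 47.9% were higher and 52.1% lower. The difference between the subunits was not tested.

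By origin, as the standard names of mitochondrial ribosomal proteins give it, the 41 members with a bacterial homologue had a median log2 ratio of 0.01, with 22 higher and 19 lower in Alkbh1-/-. The 29 mitochondria-specific members had a median of -0.05, with 9 higher and 20 lower. That naming sets Mrps18a and Mrps18b, relatives of a bacterial protein, among the mitochondria-specific members, and moving both left the medians at -0.05 for the mitochondria-specific members and 0.01 for those with a bacterial homologue. Of all genes over 5 CPM, 52.1% were lower in Alkbh1-/-. Within the large subunit, 16 of 20 mitochondria-specific members were lower, and 14 of 25 with a bacterial homologue. Within the small subunit, 4 of 9 mitochondria-specific members were lower, and 5 of 16 with a bacterial homologue. Summed ratios of these groups ranged from 0.952 for the mitochondria-specific proteins of either subunit to 1.03 (0.981 to 1.08) for the small subunit proteins with a bacterial homologue.

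For the parts of the ribosome with a known function, summed ratios ran from 0.908 to 1.06, and their differences were not tested. Each part has few members, and by sign 47.9% of all genes over 5 CPM were higher and 52.1% lower. In the stalk and its base, which bring in elongation factors, Mrpl10, Mrpl11 and Mrpl12 were all lower by sign. Their log2 ratios were -0.05, -0.09 and -0.33, with a summed ratio of 0.908 (0.830 to 0.994). The intervals of Mrpl10 (0.805 to 1.16) and Mrpl11 (0.827 to 1.06) contain 1. Around the peptide exit, 2 of the 4 members over 5 CPM were higher and 2 lower, with a summed ratio of 0.960 (0.902 to 1.02) over all 5 in the table. The central protuberance members Mrpl38, Mrpl40, Mrpl46 and Mrpl48 all lay within 1.2-fold (summed ratio 0.961, 0.896 to 1.03). In the small subunit, the head proteins Mrps7, Mrps9, Mrps10, Mrps14 and Mrps24 had a summed ratio of 1.06 (0.972 to 1.15), with 4 of 5 higher. The body held both directions, from Mrps17 at a log2 ratio of -0.34 to Mrps12 at 0.41 (summed ratio 0.976, 0.874 to 1.09). The platform ran from Mrps18c at -0.47 to Mrps11 at 0.13 (summed ratio 0.946, 0.866 to 1.03).

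Mammals have 3 mitochondrial paralogs related to the bacterial protein S18. Mrps18c had 109 counts (10.5 CPM) in Alkbh1-/- and 122 (15.0 CPM) in WT, a ratio of 0.703 (0.538 to 0.918). Mrps18b had 209 counts (20.2 CPM) in Alkbh1-/- and 146 (17.9 CPM) in WT, a ratio of 1.13 (0.907 to 1.40). Mrps18a, whose product is part of the large subunit, had 61 counts (5.90 CPM) in Alkbh1-/- and 57 (7.01 CPM) in WT, a ratio of 0.842 (0.577 to 1.23). The intervals of Mrps18b and Mrps18c overlap over a narrow range, and that of Mrps18a overlaps both. In the windows printed above, Mrps18b holds the NRF1 and the ETS motif and Mrps18c holds the ETS motif.

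Under 5 CPM in both libraries were Mrpl14, Mrpl23 and Mrps36. Mrpl14 had 40 counts in each library (ratio 0.787, 0.495 to 1.25). Mrpl23 had 2 counts in Alkbh1-/- and 4 in WT, too few for a comparison (ratio 0.393, 0.0356 to 2.75), while the row of its pseudogene Mrpl23-ps1 held 20 in each. Mrps36, a small protein now known as part of the 2-oxoglutarate dehydrogenase complex, had 28 counts in Alkbh1-/- and 13 in WT (ratio 1.69, 0.850 to 3.56), and Mrps36-ps1 had 21 in Alkbh1-/- and 17 in WT. Mrpl48 also has a pseudogene in the table: the gene had 216 counts in Alkbh1-/- and 167 in WT, a ratio of 1.02 (0.828 to 1.25), and Mrpl48-ps had 104 in Alkbh1-/- and 115 in WT, a ratio of 0.712 (0.541 to 0.936). Reads that fit a gene and its copy equally may have been split between them, so the counts of these genes are uncertain.

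The members are spread over 17 autosomes, and none lies on the X chromosome, which is silenced in pachytene; of the genes over 5 CPM with a chromosome in RefSeq, 3.13% do. For 23 of the 65 measured members with a start window (35.4%), another gene's start lay within 500 bases on the opposite strand. Over 5 CPM this held for 22 of 62 members (35.5%) and for 1989 of the 9029 genes with a window, a difference that was not tested. Mrpl46 and Mrps11 are such a pair with each other. Mrpl46 had 171 counts in Alkbh1-/- and 155 in WT (ratio 0.868, 0.694 to 1.09), and Mrps11 had 366 in Alkbh1-/- and 262 in WT (ratio 1.10, 0.935 to 1.29), with intervals that overlap.

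Some neighbours have mitochondrial roles of their own. Mrps12 stands beside Sars2, the mitochondrial seryl-tRNA synthetase, with 98 counts (9.48 CPM) in Alkbh1-/- and 50 (6.15 CPM) in WT, a ratio of 1.54 (1.09 to 2.21), so both genes of this pair were higher. Mrpl43, level between the libraries at 41.3 CPM in each, stands beside Twnk, the mitochondrial DNA helicase (14.8 CPM in Alkbh1-/- and 13.9 CPM in WT). Ndufb5, a respiratory chain gene beside Mrpl47, was lower, at 95.4 CPM in Alkbh1-/- and 115 CPM in WT (ratio 0.831, 0.759 to 0.909). Ptcd2, beside Mrps27, had a ratio of 0.959 (0.834 to 1.10). Mrps18c, below WT, stands beside the DNA helicase gene Helq, which was not (ratio 1.05, 0.851 to 1.29). In addition, the annotated span of 21 of the 70 members overlaps another gene. Among those lower in Alkbh1-/- are Mrpl49 with Syvn1, Mrpl44 with Wdfy1, Mrps23 with Cuedc1 and Mrps6 with Slc5a3. Mrps28, which was higher, overlaps Gm15466, Gm52600 and Gm52601. The sources used here name no strand setting for the deposited counts, so reads from overlapping genes cannot be told apart. Over the 49 members that overlap no gene the median log2 ratio was -0.08, and over the 21 it was 0.02.

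Related lists of the pathway differed in their spread, from an SD of 0.10 to 0.41, as the plot of related lists shows, against 0.21 over the members. Mitoribosome proteins with other symbols (Aurkaip1, Chchd1, Dap3, Gadd45gip1 and Ptcd3) were all lower by sign, as were 52.1% of all genes. Their median log2 ratio was -0.18 and their summed ratio 0.926 (0.885 to 0.969), and 0 of the 5 were 1.5-fold lower. The most counted of them, Dap3, a GTP-binding protein of the small subunit, was level at 231 CPM in Alkbh1-/- and 235 CPM in WT (ratio 0.982, 0.924 to 1.04). Chchd1 was the lowest (ratio 0.799, 0.669 to 0.956). The interval of Gadd45gip1 (0.658 to 1.18) contains 1, like that of Dap3. Of 12 translation factors, 0 were 1.5-fold higher and 1 (8.33%) was 1.5-fold lower, against 8.06% and 8.79% of all genes. Their median was 0.11 and their SD 0.37. The elongation factor Tufm was the highest of them (10.9 CPM in Alkbh1-/- and 7.38 CPM in WT, ratio 1.48, 1.07 to 2.06) and the release factor Mtrf1l the lowest (ratio 0.533, 0.348 to 0.811).

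Among 22 genes of ribosome assembly and ribosomal RNA modification, the median log2 ratio was -0.09 and the SD 0.41. By the log2 ratio 1 (4.55%) was 1.5-fold higher and 2 (9.09%) lower, against 8.06% and 8.79% of all genes. By the plain ratio 1 (4.55%) was higher and 3 (13.6%) lower, against 9.15% and 9.69% of all genes. Nsun4, the methyltransferase that works with Mterf4 on the ribosomal RNA, led with 1082 counts (105 CPM) in Alkbh1-/- and 497 (61.1 CPM) in WT, a ratio of 1.71 (1.54 to 1.91). Mrm1, a ribosomal RNA methyltransferase, was lowest, at 3.97 CPM in Alkbh1-/- and 9.83 CPM in WT (ratio 0.403, 0.270 to 0.595). Of 19 synthetases and amidotransferase subunits for mitochondrial transfer RNA, 1 (5.26%) was 1.5-fold higher and 1 (5.26%) lower by the log2 ratio (median 0.02). By the plain ratio 3 (15.8%) were higher and 1 (5.26%) lower. The highest was Gars, whose product also serves the cytosol, with 110 CPM in Alkbh1-/- and 62.8 CPM in WT (ratio 1.75, 1.58 to 1.95). The lowest was Lars2, for mitochondrial leucine, with 56.4 CPM in Alkbh1-/- and 106 CPM in WT (ratio 0.530, 0.477 to 0.590).

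For mitochondrial transcription, RNA processing and replication, none of 17 genes was 1.5-fold higher or lower, against 8.06% and 8.79% of all genes. The SD of this list, 0.22, came nearest to the 0.21 of the members. This list's median was 0.02, against -0.04 over the members. It ran from Slirp, an RNA-binding protein (log2 ratio -0.44), to the helicase Supv3l1 (0.30). The list of cytosolic ribosomal proteins was incomplete, since its rule dropped symbols of Rpl and a single digit, such as Rpl3 and Rpl4. It also kept Rps19bp1, which is not a ribosomal protein. Of its 55 genes over 5 CPM, 1 (1.82%) was 1.5-fold higher and 3 (5.45%) lower, with a median of -0.14 and an SD of 0.33. Their extremes, Rps3a1 (-0.70) and Rps3a2 (1.38), are near-identical copies that may share reads, so both counts are uncertain. The lists differ in depth and were not tested against each other.

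**Figure D4:**
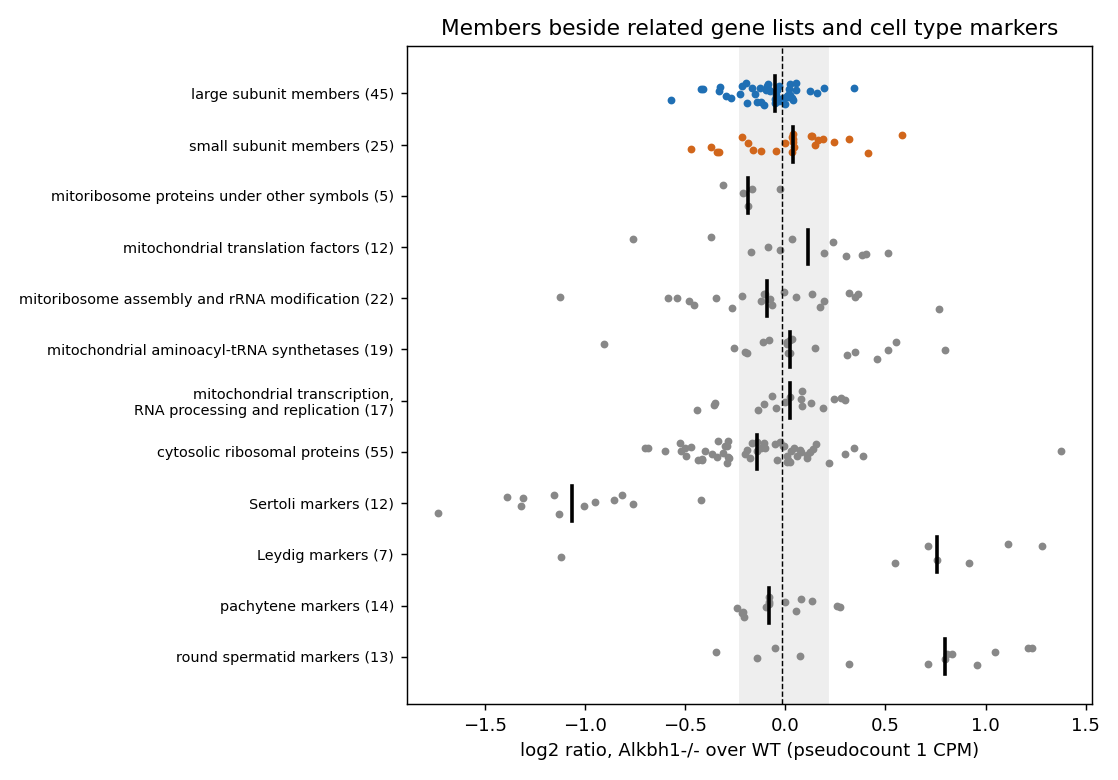
log2 ratio of Alkbh1-/- over WT (pseudocount 1 CPM) for members by subunit, for related gene lists and for cell type markers, with the number of genes over 5 CPM in brackets. Each point is a gene, vertical placement within a row is random, black bars are medians, the dashed line is the median of all genes (-0.02) and the grey band spans their quartiles; members stay between -0.57 and 0.58, while Sertoli markers lie below and Leydig and round spermatid markers mostly above.

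The libraries also differed in markers of other testis cells. Of all genes over 5 CPM, 56.7% lay within 1.2-fold and 21.8% were at least 1.2-fold lower. At 1.5-fold, 8.06% of all genes were higher and 8.79% lower. Of 14 pachytene markers, such as Sycp1 and Piwil1, 13 lay within 1.2-fold and 0 were 1.5-fold higher or lower, with a summed 11549 CPM in Alkbh1-/- and 12568 CPM in WT, so the labelled cell type was present in both. All 12 Sertoli markers were at least 1.2-fold lower and 11 at least 1.5-fold lower, summing to 1614 CPM in Alkbh1-/- and 3312 CPM in WT. Of 7 Leydig markers over 5 CPM, 5 were 1.5-fold higher and 1 lower (171 CPM in Alkbh1-/- and 125 CPM in WT over all 8). Of 13 round spermatid markers, 8 were 1.5-fold higher and 0 lower (2348 CPM in Alkbh1-/- and 1855 CPM in WT). By sign 3 of the 13 were lower, among them Tnp1, a transition protein of sperm chromatin (ratio 0.785, 0.735 to 0.837), and Tnp2 (ratio 0.907, 0.859 to 0.958). Of 6 spermatogonial markers 3 were 1.5-fold higher and 0 lower (84.5 CPM in Alkbh1-/- and 69.4 CPM in WT over all 8), and of 3 peritubular myoid markers 2 were higher and 0 lower (25.3 CPM in Alkbh1-/- and 14.3 CPM in WT over all 5). Of the 6 blood and endothelial markers only Cdh5 passed 5 CPM, at least 1.5-fold lower. Together the 6 had 10.1 CPM in Alkbh1-/- and 10.8 CPM in WT, with Hba-a1 at 1 count in Alkbh1-/- and 0 in WT. Their part in the members' ratios was not tested. In such bulk libraries, fewer cells of a type and less RNA per cell cannot be told apart, and with 1 library each neither can the preparation and the genotype.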

How the data were processed

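For each Ensembl gene, the authors deposited whole read counts from 75 bp paired-end mRNA reads. The submitters' processing notes name CASAVA 1.3, Novoalign, TopHat, bedtools and mm9 without their roles; the counter, annotation and strand setting are not given in the sources used. Symbols were matched for 19848 of 21310 identifiers (93.1%) in a table of gene names, and older symbols through RefSeq (GRCm38.p6).

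Counts were scaled by TMM in edgeR 4.0.16 (R 4.3.3), with factors of 1.01 for Alkbh1-/- and 0.989 for WT. Ratios, exact intervals and log2 ratios came from Python 3.11.15, numpy 2.4.6, pandas 2.3.3 and scipy 1.17.1, tested on simulated data. DESeq2 1.42.0 size factors, library totals, other pseudocounts, floors and memberships were alternatives. No count test was made, since each genotype had 1 library. The members and lists were chosen with earlier results of these data known. Genes were named by rule: the 6 highest and 6 lowest log2 ratios, members with few counts or copies, the Mrps18 paralogs and the extremes of each list. Levels per transcript length were not used here, so the rule's ranking of members by level was not applied, and genes described for depth, function or neighbours were chosen after their values were seen. Small RNA tables were not used.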

Additional observations from a re-analysis of the deposited data

How the results depend on the processing

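No member's log2 ratio moved by more than its counting error under the 5 alternatives of scaling or pseudocount. For scaling this could not come out otherwise, since the small change of factor moves all members nearly alike. For weakly counted members the error is wide: Mrpl23 went from -0.322 to -1.35 with no pseudocount. The sign of 2 members near 0 turned with DESeq2 size factors and of 1 with library totals. With library totals alone, without TMM, the median log2 ratio was -0.0135 for members, -0.0212 for the large subunit, 0.0641 for the small subunit, 0.0435 for members with a bacterial homologue and -0.0172 for mitochondria-specific ones, the summed ratio was 0.986, and 1 member was 1.5-fold higher; the median of all genes was then 0.01. A pseudocount of 0.25 CPM, and no pseudocount (chosen after seeing the data), each put 1 member 1.5-fold higher and 1 lower. With no pseudocount, 9.15% of all genes were 1.5-fold higher and 9.69% lower. A floor of 20 CPM, which kept 46 members, left 2 at least 1.2-fold higher and 6 lower. It gave a median of -0.0409 for members with a bacterial homologue, against 0.0138. The shares of all genes past a fold were not computed for this floor, for library totals or for a pseudocount of 0.25 CPM. Without the members that overlap another gene, an alternative chosen after seeing the data, the median was -0.0780. Of those 49 members 7 (14.3%) were 1.2-fold lower, against 21.8% of all genes. With no floor, the median was -0.0780 for the large subunit, 0.00787 for members with a bacterial homologue and 0.0200 for all genes, against -0.02. The other medians kept their direction, and the counts stayed within 1.5 times, under DESeq2 size factors, a pseudocount of 5 CPM and both other changes of membership. No paired analysis was possible because each genotype had 1 mRNA library. Depth limits members under 20 CPM most, whose intervals spanned a median of 0.82 on the log2 scale.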
